A study of Mus musculus with 12 samples.

Results

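Crebl2 and Crebrf, a pair of genes for bZIP proteins (factors that bind DNA as pairs through a basic region and a leucine zipper), were followed across all 4 groups of an RNA-seq study of C2C12 cells, a mouse myoblast line. They were chosen by name, as the gene the study knocked down and its known partner, and make up 2 of the 38481 genes with listed transcripts. The cells first received an siRNA for 3 days, either the siRNA numbered 1 against Crebl2 or, as the control, an siRNA against the luciferase of Renilla (Luc), an enzyme that mouse cells lack. Rapamycin at 20 nM, a drug that inhibits the kinase complex mTORC1, or its solvent ethanol was then present for the last 12 hours. The 4 groups were each siRNA in ethanol and each siRNA in rapamycin, with 3 libraries each, and none was left without an siRNA. A single siRNA sequence stood for the loss of Crebl2, and effects of that sequence on other transcripts cannot be told apart from effects of the loss. The series' title names metabolism in muscle and liver cells as its subject, and only the muscle line is described here.

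Crebl2 and Crebrf are the mammalian counterparts of REPTOR-BP and REPTOR, which were described in the fruit fly as partner factors that switch on genes when the kinase complex TORC1 is inactive. In the fly, active TORC1 holds REPTOR in the cytoplasm, and its inhibition lets REPTOR enter the nucleus and act with REPTOR-BP. Crebrf was first known in mammals as the recruitment factor of Luman (Creb3), a membrane-bound member of the CREB family, and has also been tied to the glucocorticoid receptor. Crebl2 is a short protein that resembles CREB in its basic region.

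The libraries held 33404087 to 42891015 counts each. All 6 myoblast markers looked at (Myod1, Myf5, Cdh15, Des, Itga7 and Pax7) were present, with a summed level of 2938 to 4261 CPM (CPM is the read rate per library that edgeR gives, here after TMM scaling, a correction for library composition). Markers of endothelial, blood, fat, epithelial, neural and liver cells summed to at most 0.623 CPM per list in any library. By the annotation used here, only bases that belong to a single listed transcript could gather counts. Such bases made up at most 24.5% of the exonic bases of any blood marker, so low counts say less there. Each of the other lists had a marker at 100%. Markers of differentiating muscle (Myog, Acta1 and others, 9 listed and 6 tested) differed strongly between the groups, with sums of 493 to 642 CPM for the Luc siRNA in ethanol, 181 to 217 CPM for the Luc siRNA in rapamycin, 61.4 to 74.5 CPM for the Crebl2 siRNA in ethanol and 38.3 to 48.5 CPM for the Crebl2 siRNA in rapamycin. These sums moved with both factors, and their part in the results on Crebl2 and Crebrf was not tested. In such bulk samples, fewer cells of a type and less RNA per cell cannot be told apart.

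Both genes lie on the plus strand of the mouse genome build GRCm38. Crebl2 spans chr6:134830154-134858931 and Crebrf spans chr17:26715650-26776635. The deposited counts were given per transcript and lack reads shared between listed transcripts. By the annotation used here, only exonic bases that belong to a single listed transcript could thus gather counts. The annotation release behind the counts is not given, and Synpo2 gathered reads with 0.0% of such bases, so these shares are estimates. Such countable bases made up 3017 of 3629 exonic bases of Crebl2 (83.1%) and 6410 of 8273 of Crebrf (77.5%). For Crebl2, 2771 of the countable bases lay in the last exon, after the stop codon. The stretch below is exon 3 of Crebl2-201 (chr6:134851080-134851224, plus strand, GRCm38 sequence), shown because its 145 bases are all coding and all countable and because the shorter listed transcript, Crebl2-202, skips it.
Crebl2-201 exon 3: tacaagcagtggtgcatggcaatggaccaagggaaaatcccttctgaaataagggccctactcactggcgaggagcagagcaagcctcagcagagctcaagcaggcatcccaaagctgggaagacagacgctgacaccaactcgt

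Crebl2-202 had no countable base and 0 reads in the 12 libraries, so its level could not be measured, and all 8893 Crebl2 reads were those of Crebl2-201. In Crebrf, 21674 reads (99.7%) belonged to Crebrf-201, whose last exon, exon 9, gave 5344 of its 5599 countable bases. The shorter Crebrf-203 ends in an extended exon 7 with 811 countable bases and gathered 61 reads in all. Per countable base, Crebrf-203 stood at 1.71% of Crebrf-201 with the Luc siRNA in ethanol (10 reads), 2.30% in rapamycin (26 reads), 1.14% with the Crebl2 siRNA in ethanol (5 reads) and 2.03% in rapamycin (20 reads). It was too low to be tested, and the longer form carried the gene in every group.

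**Figure D1:**
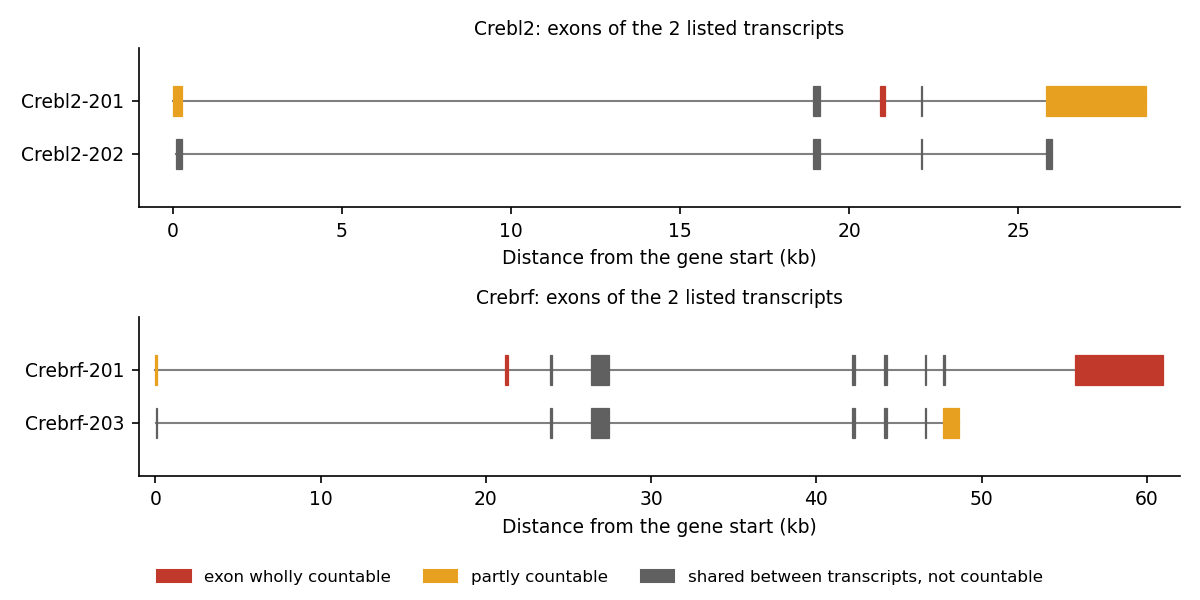
Exons of the 2 listed transcripts of Crebl2 (top) and Crebrf (bottom), to scale, against the distance from the gene start in kb. Colours mark exons whose bases were wholly, partly or not countable, and in both genes the last exon of the longer transcript held most of the countable bases (2771 of 3017 in Crebl2-201 and 5344 of 5599 in Crebrf-201).

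The RefSeq promoter table (GRCm38.p6) held an entry for Crebrf and none under the name Crebl2. The 250 bases before the Crebrf start (chr17:26715400-26715649, plus strand) are printed because rapamycin raised Crebrf in these cells. Capitals mark the letters CACGTG and TCACGTGA, which are E-box words read by helix-loop-helix factors such as the MiT/TFE family, and CCAAT on either strand (ATTGG as printed).
Crebrf promoter: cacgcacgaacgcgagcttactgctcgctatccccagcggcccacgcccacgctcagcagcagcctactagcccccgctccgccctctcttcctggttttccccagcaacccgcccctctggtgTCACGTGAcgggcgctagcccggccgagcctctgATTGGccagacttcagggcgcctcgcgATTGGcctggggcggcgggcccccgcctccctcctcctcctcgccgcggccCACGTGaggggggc

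TCACGTGA stood 126 to 119 bases before the start and CACGTG, which it contains, occurred again 14 to 9 bases before it. CCAAT occurred on the minus strand 92 to 88 and 65 to 61 bases before the start. The cyclic AMP response element TGACGTCA, the word that CREB proteins read, was not in this window, while its shorter core TGACG was found once, 121 to 117 bases before the start, sharing bases with the first E-box. Over 32851 promoters of the same length and on both strands, 6.02% held CACGTG, 0.785% TCACGTGA, 1.55% TGACGTCA, 17.8% TGACG and 33.8% CCAAT. The Crebrf window had 72.0% G and C, against a median of 52.4%. Of the 145 tested genes with TCACGTGA, 35 were called higher (24.1%) and 29 lower (20.0%) with rapamycin under the Luc siRNA, beside 19.7% and 23.7% of all 9201 tested genes with a promoter. Crebrf is among the 35. The shares called higher and lower were 18.5% and 24.1% for CACGTG and 17.8% and 25.3% for TGACG. For CCAAT they were 17.7% and 27.0%, and for TGACGTCA 12.4% and 28.8%. Among these words, only the longer E-box had a share of higher genes above that of all under the Luc siRNA. It stands in a promoter printed for the rise of Crebrf, which is itself counted, so this share is no separate result. With rapamycin under the Crebl2 siRNA the shares called higher were 29.7% for TCACGTGA and 20.8% for CACGTG, beside 19.8% of all. There they were 18.7% for TGACG, 18.5% for CCAAT and 15.3% for TGACGTCA. In the same order of words, the shares called lower there were 23.4%, 29.3%, 31.5%, 31.6% and 34.3%, beside 28.1% of all. No difference between shares was tested.

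The knockdown was seen in every library. With the Luc siRNA in ethanol, Crebl2 stood at 23.81, 25.30 and 26.18 CPM (mean 25.1 ± 1.20, SD, n = 3). With the Crebl2 siRNA in ethanol it stood at 4.87, 7.41 and 6.02 CPM (mean 6.10 ± 1.27, SD, n = 3). The highest knockdown library was far below the lowest control library. The fold change was −2.05 on the log2 scale (SE 0.11, adjusted p = 3.7e-09 by edgeR's quasi-likelihood test with Benjamini-Hochberg adjustment over 13247 genes), and the mean level was 75.7% lower. Of all tested genes, 17.0% were called lower in this comparison, and Crebl2 had the 94th largest fall. Since Crebl2 was the target, its fall checks the labels.

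In rapamycin the knockdown was of similar size. The 3 control libraries gave Crebl2 levels of 39.96, 36.41 and 36.28 CPM (mean 37.5 ± 2.09, SD, n = 3). The 3 knockdown libraries gave 10.65, 8.97 and 9.49 CPM (mean 9.70 ± 0.862, SD, n = 3). Again the groups did not overlap. The log2 fold change was −1.95 (SE 0.11, edgeR adjusted p = 3.6e-09), the mean was 74.2% lower, and 16.8% of all tested genes were called lower.

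Rapamycin raised Crebl2 itself. With the Luc siRNA the rise was 0.58 on the log2 scale (SE 0.10, edgeR adjusted p = 0.00019) and the mean was 49.6% higher, with the 3 rapamycin libraries all above the 3 ethanol libraries. Here 19.5% of all tested genes were called higher, and Crebl2 had the 1163rd largest rise. With the Crebl2 siRNA the remaining transcript rose by 0.68 (SE 0.12, edgeR adjusted p = 0.00020), with a mean 59.0% higher, in a comparison in which 19.7% of genes were called higher. The difference between these responses, the interaction of siRNA and rapamycin, was 0.10 on the log2 scale (95% confidence interval −0.23 to 0.42, edgeR adjusted p = 0.84), and it changed sign to −0.04 without the first library of the Crebl2 siRNA in ethanol. On the linear scale the rise was 12.5 CPM with the Luc siRNA and 3.60 CPM with the Crebl2 siRNA. Knockdown cells in rapamycin held 38.7% of the Crebl2 level of control cells in ethanol.

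**Figure D2:**
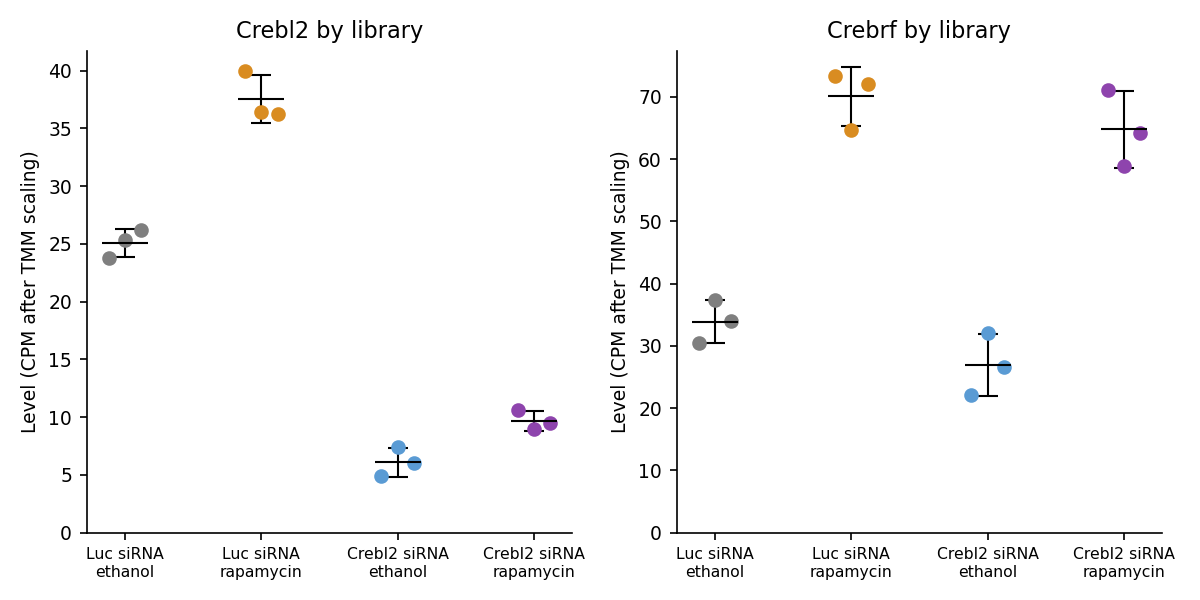
Levels of Crebl2 (left) and Crebrf (right) in CPM after TMM scaling, with 1 point per library, the group mean as a bar and the SD as whiskers (n = 3). Crebl2 separated all 4 groups, while Crebrf fell into an ethanol range of 22.18 to 37.38 CPM and a rapamycin range of 58.96 to 73.40 CPM.

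Crebrf also rose with rapamycin, under both siRNAs. With the Luc siRNA in ethanol, Crebrf stood at 30.42, 37.38 and 33.93 CPM (mean 33.9 ± 3.48, SD, n = 3), and in rapamycin at 73.40, 64.71 and 72.11 CPM (mean 70.1 ± 4.69, SD, n = 3). No ethanol library came near a rapamycin library. The rise was 1.05 on the log2 scale (SE 0.11, edgeR adjusted p = 1.4e-06), or 2.07-fold, in a comparison that called 41.1% of genes, and the 223rd largest rise of the comparison.

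After knockdown, Crebrf stood at 22.18, 32.05 and 26.56 CPM in ethanol (mean 26.9 ± 4.95, SD, n = 3) and at 71.18, 58.96 and 64.20 CPM in rapamycin (mean 64.8 ± 6.13, SD, n = 3). The groups again lay far apart. The rise was 1.27 on the log2 scale (SE 0.11, edgeR adjusted p = 1.6e-07), or 2.41-fold, and the 171st largest rise. Rapamycin thus raised Crebrf in cells with reduced Crebl2 as well, by 37.8 CPM against 36.2 CPM with the Luc siRNA. The interaction was 0.22 on the log2 scale (95% confidence interval −0.10 to 0.55, edgeR adjusted p = 0.56), so a difference between the rises was not detected, and the interval allows a response to rapamycin from 0.930 to 1.47 times that with the Luc siRNA. In the interaction, 1.2% of all tested genes were called.

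The Crebl2 siRNA had a small effect on Crebrf that depended on single libraries. In ethanol the log2 fold change was −0.34 (SE 0.11, edgeR adjusted p = 0.027), with a mean 20.6% lower, in a comparison in which 38.4% of all tested genes were called in either direction. The groups overlapped, since 1 knockdown library (32.05 CPM) was above 1 control library (30.42 CPM), and an exact two-sided permutation test of the 6 levels gave p = 0.2. Without the second library or the third of the Luc siRNA in ethanol the edgeR adjusted p was 0.12 or 0.056, and without the first library or the third of the Crebl2 siRNA in ethanol it was 0.14 or 0.071. In rapamycin the log2 fold change was −0.11 (95% confidence interval −0.34 to 0.11, edgeR adjusted p = 0.46), and the groups overlapped. There, 33.1% of all tested genes were called. The order of the Crebrf means was thus the Crebl2 siRNA in ethanol, the Luc siRNA in ethanol, the Crebl2 siRNA in rapamycin and the Luc siRNA in rapamycin, with an overlap of libraries in each pair that shares a treatment and none across treatments. For 3 libraries against 3, the exact permutation p cannot go below 0.1, and it took that value for Crebl2 in all 4 pairwise comparisons and for Crebrf in both rapamycin comparisons.

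**Figure D3:**
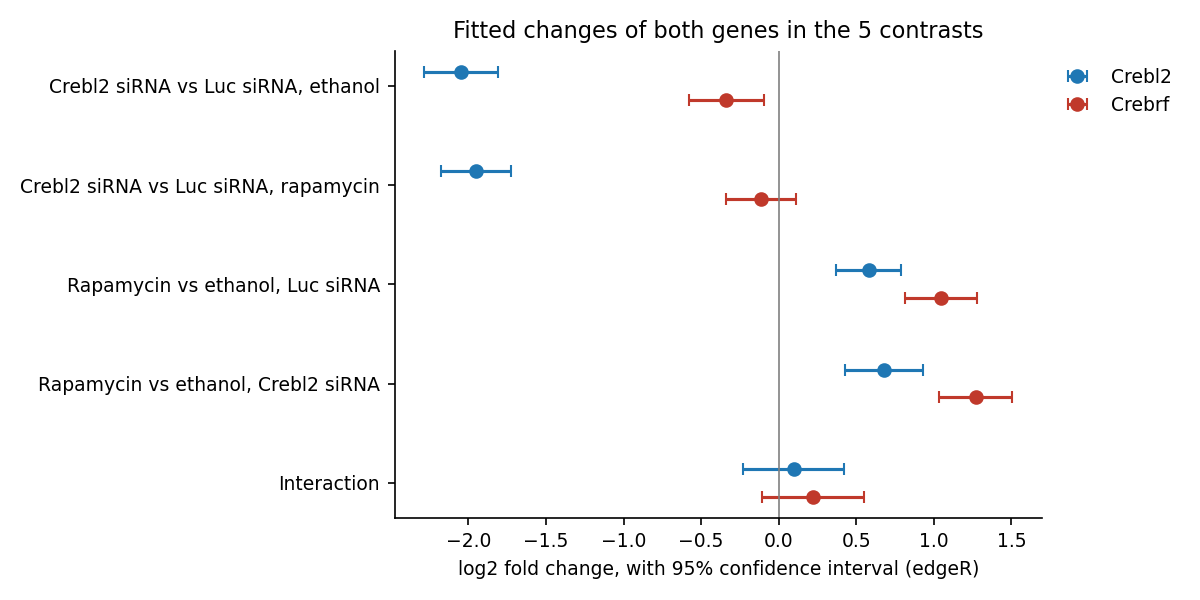
Fitted log2 fold changes of Crebl2 (blue) and Crebrf (red) with 95% confidence intervals from edgeR, in the 4 pairwise contrasts and the interaction. The siRNA contrasts separate the genes (−2.05 against −0.34 in ethanol), both genes lie to the right of 0 in the rapamycin contrasts, and both interaction intervals include 0.

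Set per countable kb of the annotation used here, Crebl2 had the higher read rate in control cells in ethanol. It stood at 8.32 CPM per kb against 5.29 CPM per kb for Crebrf. Most of these bases lie after the stop codon. How much of them the transcripts in these cells hold was not tested, so which gene is more abundant is not settled. With the Luc siRNA in rapamycin the levels were 12.4 and 10.9 CPM per kb. The order was turned round by the siRNA, with 2.02 CPM per kb of Crebl2 and 4.20 CPM per kb of Crebrf in ethanol, and 3.22 and 10.1 CPM per kb in rapamycin. The ratio of Crebrf to Crebl2 reads per countable base needs no scaling between libraries. It was 0.601, 0.695 and 0.610 with the Luc siRNA in ethanol and 0.865, 0.836 and 0.936 under the same siRNA in rapamycin. After knockdown it was 2.14, 2.04 and 2.08 in ethanol and 3.15, 3.10 and 3.18 in rapamycin. The groups did not overlap in any of the 4 comparisons. Each factor moved the ratio upwards, the siRNA through the fall of its own target, the denominator.

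By geometric means the siRNA raised the ratio 3.29-fold in ethanol and 3.58-fold in rapamycin. Since Crebl2 is the siRNA's target, these rises follow from the knockdown and are no separate result. Rapamycin raised the ratio 1.38-fold with the Luc siRNA and 1.51-fold with the Crebl2 siRNA, which measures how much more Crebrf rose than Crebl2 within the same libraries. Each of these 4 differences had the smallest exact permutation p that 3 against 3 libraries can give, 0.1 before and after Benjamini-Hochberg adjustment, so none reaches a threshold of 0.05 by this test.

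**Figure D4:**
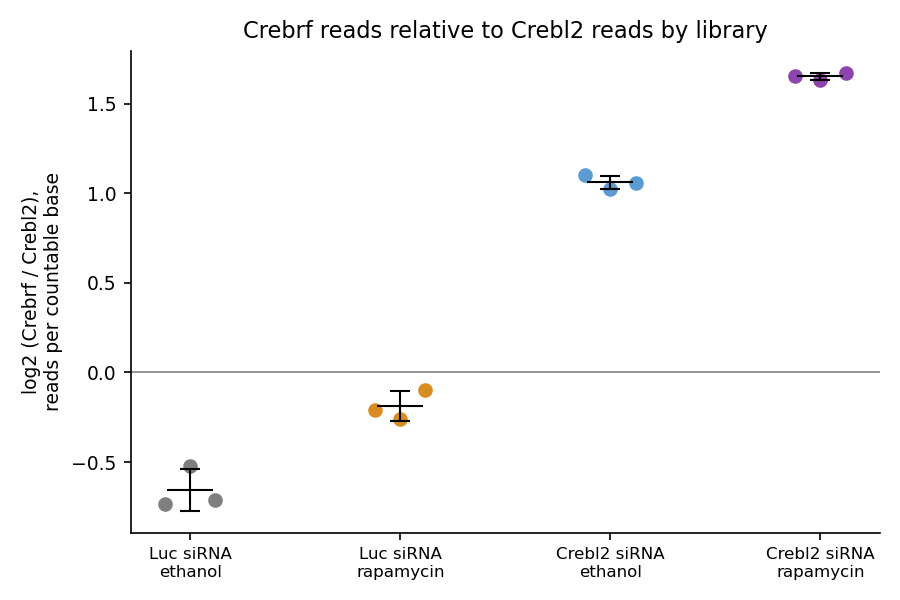
Ratio of Crebrf to Crebl2 reads per countable base on a log2 scale, with 1 point per library, the mean as a bar and the SD as whiskers (n = 3). The 4 groups form separate levels. They lie below 0 (more Crebl2 reads per countable base) with the Luc siRNA and above 0 (more Crebrf reads per countable base) with the Crebl2 siRNA.

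After knockdown the ratio varied less among replicates than the levels did. In the Crebl2 siRNA group in ethanol, Crebl2 had a coefficient of variation of 20.9%, Crebrf of 18.4% and the ratio of 2.63% (n = 3). With the same siRNA in rapamycin the values were 8.89%, 9.46% and 1.43%. This was not so with the Luc siRNA, where they were 4.77%, 10.3% and 8.17% in ethanol and 5.56%, 6.70% and 5.81% in rapamycin. The knockdown libraries held only 191 to 401 Crebl2 reads each. Counting noise alone is expected to spread the ratio by more than the values seen after knockdown. With n = 3, so small a spread therefore does not show that the genes vary together, and the contrast with the Luc siRNA was not tested. In the Crebl2 siRNA group in ethanol the first library was the lowest and the second the highest for both genes. Across the 12 libraries, both genes deviated from their group mean to the same side in 10.

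Of 8 genes on the CREB3 side of Crebrf (the CREB3 family, the cofactor Hcfc1, the target Herpud1 and the glucocorticoid receptor Nr3c1), 6 were tested, and Creb3l4 and Herpud1 were not. With the Crebl2 siRNA in ethanol 2 of the 6 were called higher and none lower (median 0.07 on the log2 scale, against 0.01 over all tested genes, of which 21.4% were called higher). Creb3l1, a relative of Luman that is active in cells that secrete collagen, rose by 0.49 (SE 0.07, edgeR adjusted p = 5.0e-05), from 175 to 245 CPM. It fell with rapamycin under the Luc siRNA, by 0.40 on the log2 scale (SE 0.07, edgeR adjusted p = 0.00026). Hcfc1 had a log2 fold change of 0.58 with the siRNA but only 1.8% countable bases, and its call with rapamycin (−0.44) was lost without any of 5 of the 6 libraries compared. Creb3 itself, the partner that gave Crebrf its name, did not pass the test in any contrast, with log2 fold changes of 0.07 for the siRNA in ethanol and 0.10 for rapamycin with the Luc siRNA, and 41.7% countable bases. Nr3c1 had 3.3% countable bases and did not pass either.

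Of 17 other CREB and ATF factors, 12 were tested, and Crem, Creb5, Atf2, Atf5 and Batf3 were not. With the siRNA in ethanol 3 were called higher and 3 lower (median 0.02), beside 21.4% and 17.0% of all tested genes, and with rapamycin under the Luc siRNA 1 was higher and 3 lower (median −0.01, against 0.02 over all tested genes, of which 21.6% were called lower). The calls were near the threshold. For the siRNA, the count of higher genes was 1 without the first library or the third of either rapamycin group, and that of lower genes was 1 without any library of the Luc siRNA in ethanol or the first or second of the Crebl2 siRNA in ethanol and 5 without the second of the Luc siRNA in rapamycin. For rapamycin, the count of higher genes was 0 without the first library or the third of the Luc siRNA in rapamycin or the third of the Crebl2 siRNA in rapamycin. Atf6, a sensor of protein folding stress, was 0.20 higher with the siRNA (edgeR adjusted p = 0.0018) and 0.17 lower with rapamycin (adjusted p = 0.0046). Atf4, an mTORC1-dependent factor of the amino acid response, had the largest called fall with rapamycin among them, by 0.68 on the log2 scale (SE 0.04, edgeR adjusted p = 5.6e-09). Creb1, the founding member, had log2 fold changes of 0.03 and 0.01 and did not pass.

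All 5 CREB coactivators were tested. With rapamycin under the Luc siRNA 3 were higher and none lower (median 0.19), where 19.5% and 21.6% of all tested genes were. They were the CREB-regulated coactivators Crtc1 (0.32), Crtc2 (0.19) and Crtc3 (0.35), with edgeR adjusted p of 0.00029, 0.0024 and 0.00020. Under the Crebl2 siRNA in ethanol Crtc1 fell by 0.43 on the log2 scale (adjusted p = 2.7e-05) and Crtc2 rose by 0.18 (adjusted p = 0.0030). The fall of Crebbp, an acetyltransferase that CREB recruits, by 0.36 was no longer called without the second library of the Luc siRNA in ethanol or the third of the Crebl2 siRNA in ethanol, where 1 coactivator was called lower in place of 2.

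Among 23 genes of mTORC1 and its upstream regulators, 18 were tested, and Mlst8, Tsc1, Tbc1d7, Rragb and Rragd were not. With rapamycin under the Luc siRNA 4 were higher and 3 lower (median −0.01), shares of the 18 close to the 19.5% and 21.6% of all tested genes. Castor1, a cytosolic arginine sensor, rose with rapamycin by 0.72 (edgeR adjusted p = 1.7e-06) and with the siRNA in ethanol by 0.66 (adjusted p = 7.1e-06). Sesn2, a leucine sensor, rose by 0.80 with the siRNA (adjusted p = 9.0e-08) and fell by 0.35 with rapamycin (adjusted p = 0.00027). Deptor, an inhibitor within the complex, rose with rapamycin by 0.38 (adjusted p = 0.00016). Mtor had log2 fold changes of −0.29 with the siRNA (adjusted p = 0.0077) and 0.25 with rapamycin (adjusted p = 0.015), the second lost without the first library of the Luc siRNA in ethanol or without the first or the third in rapamycin. With the siRNA in ethanol 5 were called higher and 4 lower (median 0.04), beside 21.4% and 17.0% of all tested genes. Without the first library of the Luc siRNA in ethanol both counts were 2. The lower count was also 2 without the third library of that group or the first or second of the Crebl2 siRNA in ethanol, and the count of 4 higher with rapamycin was 2 without the libraries that ended the call of Mtor.

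With the Luc siRNA Crebrf had a larger rise with rapamycin than any called gene among 20 other transcription factors under mTORC1, of which 16 were tested and Tfe3, Hif1a, Mlx and Stat3 were not. With the Crebl2 siRNA Myc rose by 1.39 (SE 0.36, edgeR adjusted p = 0.0047), above the 1.27 of Crebrf. Myc has 4.5% countable bases, and with that siRNA it averaged only 0.263 CPM in ethanol and 0.712 CPM in rapamycin. Under the Luc siRNA 4 of the 16 rose and 4 fell (median 0.14), near the 19.5% and 21.6% of all tested genes. Foxk1, a repressor of autophagy genes, rose by 0.79 (SE 0.05, edgeR adjusted p = 3.2e-09), Foxo1 by 0.66 (adjusted p = 8.6e-08) and Foxo3 by 0.31 (adjusted p = 6.5e-05). Srebf1 and Srebf2, the regulators of lipid synthesis, fell by 0.37 and 0.30 on the log2 scale. Ppargc1a fell by 1.85 on the log2 scale but lay at 0.624 CPM or less on average with the Luc siRNA. With the siRNA in ethanol 3 rose and 2 fell (median 0.07, beside 21.4% and 17.0% of all tested genes), the falls being those of Foxo4 (by 0.39) and Foxo3 (by 0.30), and none of the 16 was called in the interaction.

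Of 11 glucocorticoid receptor target genes, 8 were tested, and Zbtb16, Mt2 and Lcn2 were not. With rapamycin under the Luc siRNA 3 rose and none fell (median 0.08), beside 19.5% and 21.6% of all tested genes. Cebpd, a bZIP factor of the C/EBP family, rose by 1.10 (SE 0.15, edgeR adjusted p = 2.1e-05), from 18.3 to 39.5 CPM, and Klf9 by 0.47 (adjusted p = 3.3e-05). With the siRNA in ethanol Klf9 was called higher (0.42, adjusted p = 0.00012) and Dusp1 lower (−0.22, adjusted p = 0.0075). The count called lower was 3 without the third library of the Luc siRNA in ethanol or the first or second in rapamycin, and 2 without the second of the Crebl2 siRNA in ethanol or its first or second in rapamycin. With rapamycin 1 was lower without the third library of the Luc siRNA in ethanol and 2 without its second in rapamycin. Dusp1, which is also a neighbour of Crebrf, was the only gene of these 6 lists called in the interaction.

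Within 250 kb of Crebl2 lie 9 protein-coding genes, and the 7 tested were Borcs5, Dusp16, Gpr19, Cdkn1b, Apold1, Ddx47 and Gprc5a. None was called lower with the siRNA in ethanol and 3 were called higher (Dusp16 0.36, Ddx47 0.17 and Gprc5a 0.44 on the log2 scale), where 17.0% and 21.4% of all tested genes were. Gpr19, the nearest, is on the minus strand, and its body lies 10.2 kb past the end of Crebl2. It had log2 fold changes of −0.17 with the siRNA and −0.04 with rapamycin, neither of which passed the test. Gpr19 had 120 reads in all and 28.2% countable bases, so its lack of a call says little. Cdkn1b, an inhibitor of the cell cycle 61.5 kb away, was the neighbour called higher with rapamycin under the Luc siRNA (0.32, edgeR adjusted p = 0.0041). It was lower with the siRNA in rapamycin (−0.63). Those are the directions of Crebl2. With rapamycin under the Crebl2 siRNA, however, Cdkn1b had −0.16 (edgeR adjusted p = 0.13) where Crebl2 rose by 0.68. The fall of Cdkn1b with the siRNA in ethanol (−0.15) did not pass the test (edgeR adjusted p = 0.14). Ddx47 was called lower with rapamycin (−0.10), a call lost without any library of the Luc siRNA in ethanol or the third in rapamycin.

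The genes near Crebrf went both ways with rapamycin under the Luc siRNA, where 19.5% of all tested genes were called higher and 21.6% lower. Atp6v0e, 16.0 kb before Crebrf, and Bnip1, 4.4 kb after it, were both lower, with log2 fold changes of −0.16 and −0.25, where Crebrf rose by 1.05. The call of Atp6v0e was lost without any library of the Luc siRNA in ethanol or the second in rapamycin, and that of Bnip1 without the first library of either group. Farther away, the kinesin Kifc5b was called lower (−1.49) and the chromatin protein Phf1 higher (0.47). Calls were also made for Dusp1 (0.20, lost without the second library of the Luc siRNA in ethanol or the second or the third in rapamycin) and Bak1 (−0.37), while Ergic1, Nkx2-5, Cuta and Ggnbp1 were not called. Cuta and Ggnbp1 have 10.7% and 12.3% countable bases and 273 and 287 reads in all, so their lack of a call says little. Bnip1 has 42.7% countable bases. With the siRNA in ethanol Phf1 (−0.78) and Dusp1 (−0.22) were called lower, and Ergic1 (0.40), Bak1 (0.31) and Kifc5b (0.30) were called higher. In that comparison 17.0% of all tested genes were called lower and 21.4% higher.

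Across the 12 libraries, the genes whose levels ran most like those of Crebrf were Klhl24, Fbxl20, Cdnf, Tcp11l2, Ccdc28a and Synpo2. Likeness was the root mean square difference of log2 levels, each centred on its own mean, over 6992 protein-coding genes with at least 5 CPM, and was 0.13 for Klhl24 and 0.18 for Synpo2 against a median of 0.65. Klhl24 codes for an adaptor of a ubiquitin ligase and Fbxl20 for an F-box protein of another. Klhl24 averaged 114 ± 8.06 CPM with the Luc siRNA in ethanol, 223 ± 13.9 in rapamycin, 92.4 ± 3.42 with the Crebl2 siRNA in ethanol and 207 ± 14.6 in rapamycin (SD, n = 3 each), the same order of groups as Crebrf. Synpo2 has no countable base in the annotation used here, so its reads cannot be placed. No test was made, since these genes were picked for their likeness.

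Crebl2 had other companions. Nsg1, Galnt15, Csf2rb, Omd, Car3 and Dcn were nearest, with differences of 0.21 to 0.33 against a median of 1.09. They were low with the siRNA and, like Crebl2, had their highest mean with the Luc siRNA in rapamycin. Nsg1 averaged 76.9 ± 3.07 CPM with the Luc siRNA in ethanol, 118 ± 4.10 in rapamycin, 24.3 ± 1.10 with the Crebl2 siRNA in ethanol and 31.7 ± 2.38 in rapamycin (SD, n = 3 each). Car3 codes for a carbonic anhydrase of muscle and fat, and Omd and Dcn for small proteoglycans of the matrix. Dcn has 18.7% countable bases. Crebrf was the 921st nearest gene to Crebl2, at a difference of 0.93. The siRNA lowered Crebl2 directly, so this order favours genes that fall with the siRNA. It cannot say whether Crebl2 and Crebrf are otherwise regulated alike.

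**Figure D5:**
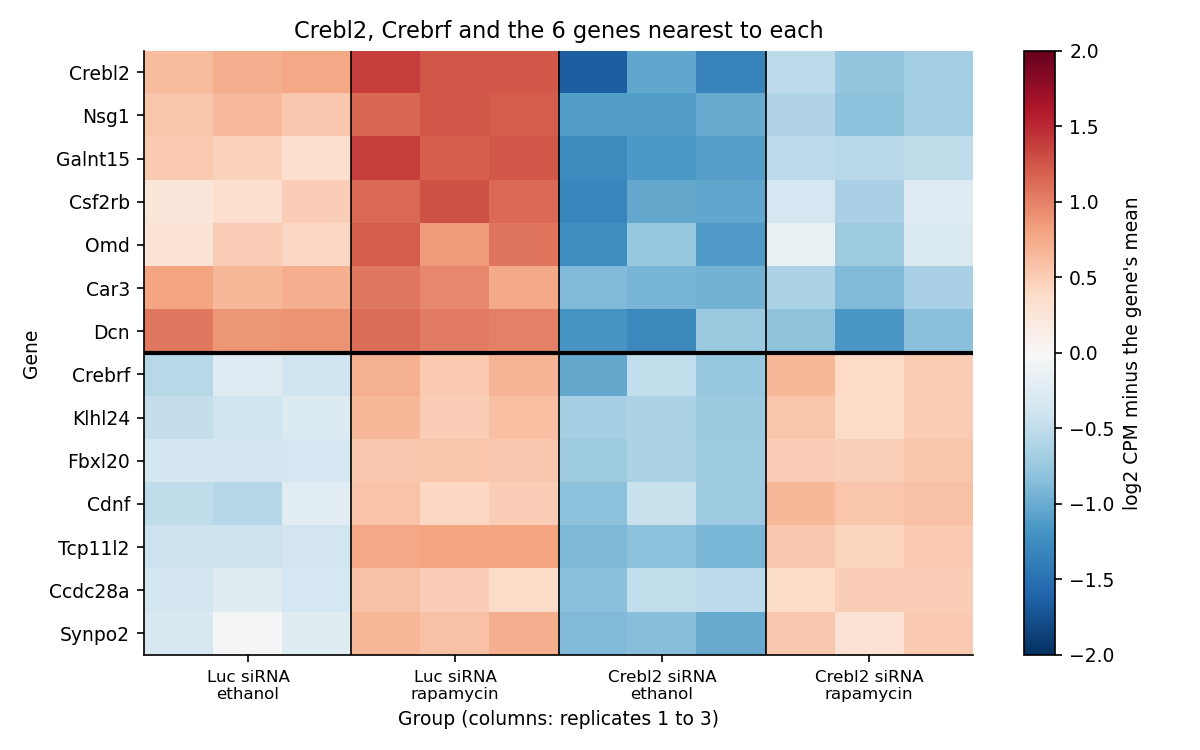
Log2 CPM of Crebl2, Crebrf and the 6 genes nearest to each in the 12 libraries, centred on each gene's own mean, with red above and blue below it. The upper block follows the siRNA with the highest values for the Luc siRNA in rapamycin, and the lower block follows rapamycin under both siRNAs.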

How the data were processed

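RNA was measured in 12 libraries made with a stranded total RNA kit, per the labels. The deposited files hold the authors' raw read counts per Ensembl transcript. Trim Galore, TopHat and HTSeq, without versions, and the builds mm9 and GRCm38 are named in the submitters' processing notes. The strand setting and the annotation release are not given in the sources used here. Transcript identifiers were matched without version to GENCODE M21 on GRCm38 (58264 of 58611, 99.41%; the other 347 held 0.038% of reads and were left out) and summed to 38481 genes, although the tests had been laid out for counts per gene. Genes passing the edgeR filter at a minimum count of 10 (13247) were scaled by TMM and fitted with edgeR 4.0.16 in R 4.3.3 (quasi-likelihood F test, 1 mean per group, all 12 libraries). A call is an adjusted p (Benjamini-Hochberg) below 0.05. Standard errors were taken from F and the log2 fold change. Single transcripts, RLE scaling, DESeq2 1.42.0, other count filters, a replicate block, only the compared groups and leaving out libraries were alternatives. The fit was tested on simulated data.

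The members, the 6 gene lists and the tests were chosen with earlier results of these data known. Genes were named by rule: both members, called, top 2 or untested list members, tested neighbours within 250 kb and the 6 nearest genes. An item named by this rule is not reported here. Replicates differed by more than sampling noise, but nothing says that they were separate cultures, and p-values may then reflect technical spread only. Promoters and their build are those of RefSeq. The siRNA sequence and protein sequences were not used here.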

Additional observations from a re-analysis of the deposited data

Results flagged for a closer look

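Dusp1, a phosphatase of MAP kinases that lies 153.5 kb before Crebrf, is listed here because its response to rapamycin differed between the siRNAs in the fit's own test of the difference. With the Luc siRNA it stood at 221 ± 13.7 CPM in ethanol and 254 ± 13.9 in rapamycin (SD, n = 3 each), a log2 fold change of 0.20. After knockdown it stood at 189 ± 11.9 CPM in ethanol and 299 ± 9.01 in rapamycin (SD, n = 3 each), a log2 fold change of 0.66. The interaction was 0.46 on the log2 scale (SE 0.08, edgeR adjusted p = 0.012) and was called under all 17 alternatives run for it. In that test 1.2% of all tested genes were called.

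The muscle markers Actc1, Acta1, Cdh15 and Itga7 are listed for the same reason, all lower with rapamycin under both siRNAs and less so after knockdown. The interactions were 1.27, 1.13, 0.41 and 0.39 on the log2 scale, with edgeR adjusted p of 0.0029, 0.0025, 0.024 and 0.019. Under the Luc siRNA Actc1 went from 72.6 ± 9.84 to 16.6 ± 2.35 CPM and after knockdown from 6.27 ± 0.182 to 3.47 ± 0.487 CPM (SD, n = 3 each). Those of Actc1 and Acta1 were called under all 17 alternatives. The call of Itga7 was lost with the replicate block, and that of Cdh15 with the block and without the first or the second library of the Luc siRNA in ethanol or the first of the Crebl2 siRNA in ethanol.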

How the results depend on the processing

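The results on Crebl2 and Crebrf kept their direction and their side of the threshold with a replicate block, with RLE scaling, with DESeq2, with a minimum count of 50 or without any filter, in fits of the compared groups and for the most abundant transcript alone. Leaving out 1 library at a time changed 2 of them. The fall of Crebrf with the siRNA in ethanol ranged from −0.47 to −0.21 on the log2 scale and lost its call in 4 of 12 such fits. The interaction of Crebl2 ranged from −0.044 to 0.25 and changed sign without the first library of the Crebl2 siRNA in ethanol; the cause was not tested. The same alternatives for list members, markers and neighbours were chosen after seeing the data. Beside the leave-out counts given above, counts of called list members moved by over 1.5 times in these settings. For the siRNA in ethanol, CREB and ATF factors called lower went from 3 to 1 with DESeq2 and to 5 without a filter, those called higher from 3 to 1 without a filter, mTORC1 genes called lower from 4 to 2 with the block, and glucocorticoid targets called lower from 1 to 3 without a filter, 2 at a minimum count of 50 and 2 with the block. For rapamycin with the Luc siRNA, CREB3 genes called lower went from 2 to 1 with DESeq2, without a filter and with the block, CREB and ATF factors called higher from 1 to 2, mTORC1 genes called lower from 3 to 5 and glucocorticoid targets called lower from 0 to 1 without a filter, and other factors called lower from 4 to 2 at a minimum count of 50.

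Libraries with the same replicate number did not deviate together (correlations of −0.29 to 0.11), so no pairing by number was seen in the levels. Whether libraries of the same number were made together is not known from the labels. With the replicate block the fall of Crebrf in ethanol was −0.34 (edgeR adjusted p = 0.044), and no call on Crebl2 or Crebrf changed. Depth limits Crebl2 most in the knockdown libraries (191 to 401 reads) and Crebrf-203 everywhere (61 reads in all).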

Other observations

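After the levels had been seen, the deviations of Crebl2 and Crebrf from their group means were set against each other over the 12 libraries. On the log2 scale Pearson's r was 0.91 and Spearman's rho 0.87. An exact two-sided permutation test of the 1296 orders within groups gave p = 0.010 and 0.0085 (1 relation). The relation was picked from these same levels, so these p-values describe it and are no test of it. Without the first and second libraries of the Crebl2 siRNA in ethanol, the farthest from the median of Crebl2, r was 0.77 and rho 0.78. The exact permutation p was then 0.060 and 0.051, so the values under 0.05 rest on those libraries. For comparison, the median r of all tested genes with Crebl2 was −0.04, and 0.279% of them had an r as high as that of Crebrf. What the libraries share that moves both genes was not tested.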
